A study of Mus musculus with 6 samples.

Results

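Translation factors are the proteins that load ribosomes onto mRNA and drive them along it. Their mRNAs were examined in mouse bone marrow-derived dendritic cells grown with and without queuine. Members were the protein-coding genes whose symbol starts with Eif and a digit, or with Eef1 or Eef2. There were 87 of them among 57132 genes in the deposited table, of which 21691 were protein-coding. They comprised 69 initiation factor genes, 4 genes for eIF2 kinases and 14 elongation factor genes. Queuine is the base from which animal cells make queuosine, which replaces guanosine at the wobble base of the tRNAs that read Asn, Asp, His and Tyr codons. Its supply is what the study varied, to ask how queuosine affects the transcriptome.

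Marrow came from female C57BL/6 mice of 6 to 8 weeks, and both groups were cultured in RPMI-1640 with dialyzed fetal bovine serum and GM-CSF at 15 ng/mL, the cytokine that turns marrow progenitors into dendritic cells. One group (0Q) received no queuine. The other (100Q) received queuine at 100 nM, renewed with the feeds on days 2 and 4. Each group had 3 libraries of RNA extracted on day 5. The labels describe triplicate plating and name no separate animals. The p-values thus reflect only how much these cultures varied, and part of that variation may be technical.

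Initiation begins when the cap-binding complex eIF4F takes hold of an mRNA and eIF3 joins it to the small ribosomal subunit, to which eIF2 has brought the initiator methionyl-tRNA. eIF2B recharges eIF2 with GTP after each round, and the eIF2 kinases block that step under stress by phosphorylating the alpha subunit of eIF2. In elongation eEF1A delivers aminoacyl-tRNAs, the eEF1B complex recharges eEF1A, and eEF2 moves the ribosome on by a codon.

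Library totals were 3675918 to 6755367 expected counts in 0Q and 4484785 to 19386533 in 100Q, the deepest being 100Q replicate 3. The cell label was checked against markers. All 10 dendritic markers were detected, with a summed level of 897 to 1052 CPM (counts scaled to a common library total) in 0Q and 932 to 1048 in 100Q. The sums were far higher for the 8 macrophage and monocyte markers, at 17921 to 19911 CPM against 18079 to 21694. They were also high for the 8 granulocyte markers, at 14214 to 16858 CPM in 0Q and 11998 to 14269 in 100Q. The cultures were thus mixed by these markers, the granulocyte sum ranged lower in 100Q with little overlap, and its part in the values below was not tested. In such bulk libraries, fewer cells of a type and less RNA per cell cannot be told apart. The T cell gene Cd3e was at 0 in all 6 libraries.

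Of the 87 members, 63 had enough counts to be tested, namely 48 initiation factors, all 4 kinases and 11 elongation factors. The other 24 were almost silent, and 16 of them were at 0 in every library. Most were the 16 untested Eif1ad genes, which lie on chromosome 12 and are near-identical to each other, and of which 13 were at 0 in every library. No untested gene of that family exceeded 13 counts in all libraries together. Eef1a2, the form of eEF1A known from neurons and muscle, had 1 count over the 0Q libraries. It had 4 over the 100Q libraries, all in replicate 3, the deepest library. The counts of untested members are raw and not scaled for depth, so they give no comparison of the groups. Eif5a2, the rarer relative of Eif5a, had 2 counts in 0Q, all of them in replicate 3, and 0, 14 and 9 counts in the 100Q libraries. Eif2s3y, the Y-linked gene for the gamma subunit of eIF2, had 1 count in all 6 libraries, and the mice were female.

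The remaining untested members were Eif4e1b, Eif4a3l1 and Eef1ece2, with no counts, Eif4a3l2, with 12, and Eef1akmt3, with 11.

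No translation factor mRNA passed the test between 100Q and 0Q. With edgeR's quasi-likelihood test and Benjamini-Hochberg adjustment over all 10554 tested genes, 0 of 63 members had an adjusted p under 0.05, and so did 0 of all tested genes (0%). The smallest adjusted p of any gene was 0.999. At an unadjusted p under 0.05, 2 members stood out, Eif4g3 with the higher mean in 100Q and Eif2a with the lower. Across all tested genes 309 met that threshold (2.93%), namely 1.77% with the higher mean in 100Q and 1.16% with the lower. The members' count was 8 without 0Q replicate 2, where 6.03% of all tested genes met the threshold, and 1 without 100Q replicate 2, where 1.74% did. DESeq2 and limma-voom each placed 3 members under it and 0 members under the adjusted threshold, and over all genes they placed 356 and 310 under the unadjusted one.

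The estimates were tight for the abundant factors. For 35 of the 63 members the whole 95% confidence interval lay within a 1.5-fold change in either direction. Of the 28 members at 100 CPM or more, 26 had such an interval, whereas 9 of the 35 less abundant members did. So did 1188 of all 1328 tested genes at 100 CPM or more, and 1895 of all 10554 tested genes. The narrow intervals thus went with level and were not particular to translation factors. The median log2 fold change of 100Q relative to 0Q was -0.05 over the members, with 25 above 0 and 38 below. Over all tested genes it was 1.9e-05, with 5277 on each side.

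That imbalance was shared by other abundant genes. Among all 1328 tested genes at 100 CPM or more, 67.8% lay below 0 with a median of -0.06, and among the 28 members at that level, 20 (71.4%) lay below 0 with a median of -0.06.

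**Figure D1:**
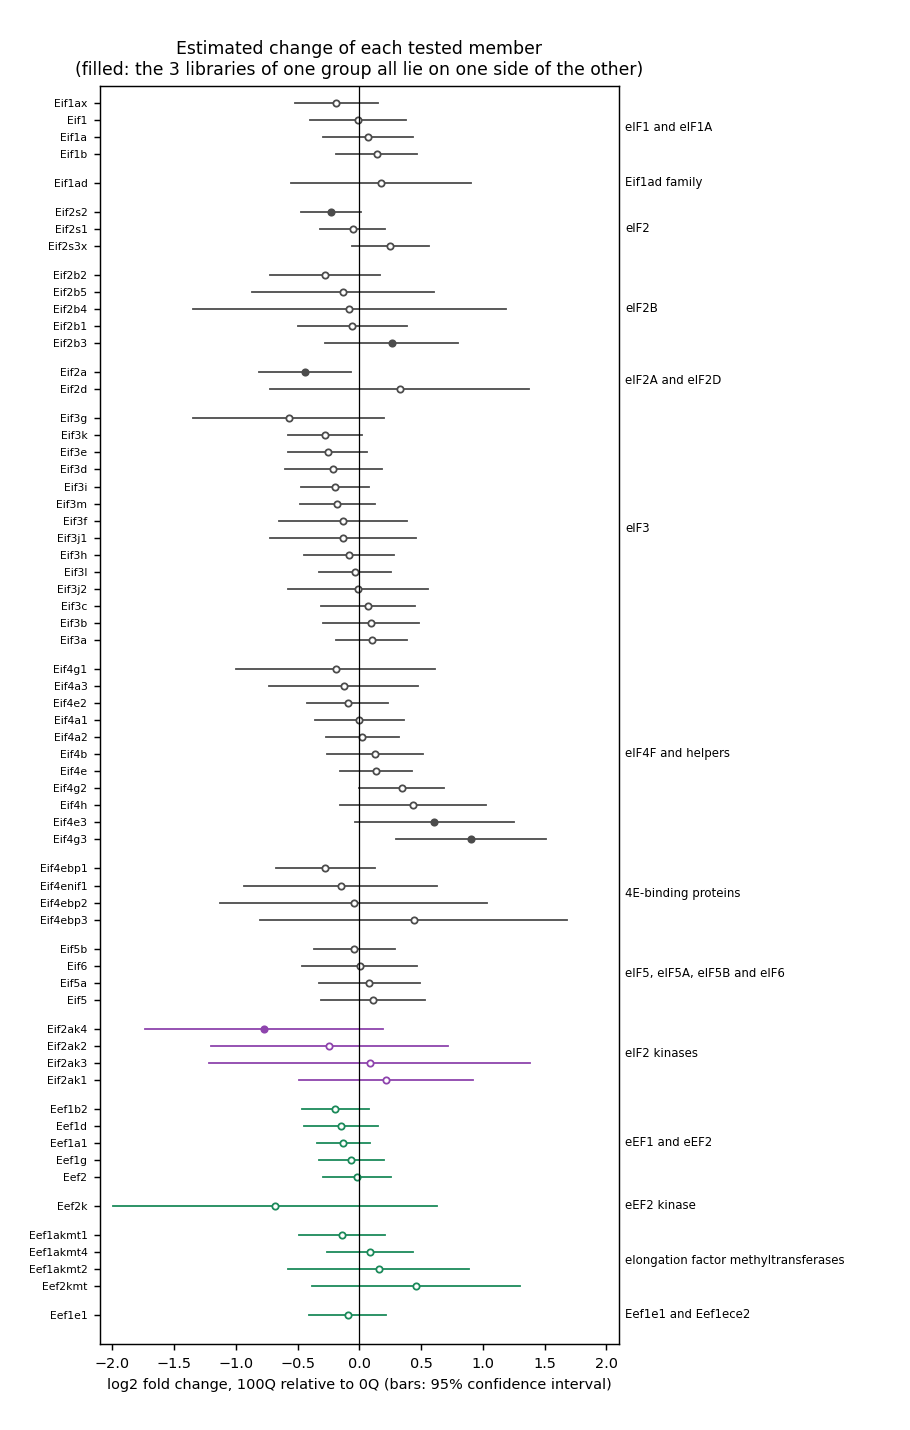
Log2 fold change of 100Q relative to 0Q for the 63 tested members, ordered by role, with 95% confidence intervals as bars. Filled points mark the 6 members whose groups did not overlap. Intervals are narrow for eIF2, most eIF3 subunits and the core elongation factors, wide for the kinases, and all but those of Eif4g3 and Eif2a contain 0.

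The elongation genes, though few, together reached a level close to that of all initiation factors. The summed level of the 11 tested genes was 6254 ± 572 CPM (SD, n = 3) in 0Q and 5763 ± 503 in 100Q (SD, n = 3). The sum over the 48 tested initiation factors was 6327 ± 478 and 6084 ± 240 CPM (SD, n = 3). In both classes the group means differed by less than the SD of the 0Q libraries.

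Eef1a1 alone made up most of the elongation sum. It encodes the form of eEF1A that most tissues use and lies at chr9:78384916-78396778 on the minus strand (GRCm39). Its level was 3745, 3323 and 3413 CPM in the 0Q libraries and 3163, 2916 and 3493 CPM in the 100Q libraries. The groups overlapped because 100Q replicate 3 was above 2 of the 0Q libraries, and the log2 fold change was -0.13 ± 0.10 (SE; edgeR adjusted p = 0.999). Per kilobase of merged exons it had 673 CPM, the highest of all members. Only 0.454% of the joint counts of Eef1a1 and its 7 near-identical copies lay on the copies.

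The annotated transcript starts and the coding starts of both main elongation factors are shown, for their pyrimidine runs and queuosine codons. Transcripts of many translation genes begin with a pyrimidine tract through which mTOR signalling is known to control their translation. In the stretches below, 30 bases long, read 5 bases before to 24 after the start that RefSeq annotates, capitals mark the first run of a C and at least 4 further pyrimidines that begins no more than 3 bases before the start. Pyrimidines upstream of that limit stay in lower case, also where they adjoin the run. They were taken from RefSeq's GRCm38.p6 promoters and placed on GRCm39 by exact match, at chr9:78388982-78389011 (minus strand) for Eef1a1 and chr10:81012460-81012489 (plus strand) for Eef2. In Eef1a1 the run spans the annotated start, and in Eef2 it begins 15 bases downstream of it. Whether the cells used either annotated start was not tested, so neither run is shown to open the mRNA.
Eef1a1: ccCTCTTCCCgagggtgggggagaacggta
Eef2: cgggcgttgacgtcagcggtCTCTTCCgcc

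The next lines give the first 120 coding bases (40 codons) of both genes, from the GENCODE release 39 annotation, with the codons that queuosine tRNAs read in capitals. Eef1a1 has 7 of them there and Eef2 has 9, and those ending in C outnumber those ending in U by 6 to 1 and by 7 to 2.
Eef1a1: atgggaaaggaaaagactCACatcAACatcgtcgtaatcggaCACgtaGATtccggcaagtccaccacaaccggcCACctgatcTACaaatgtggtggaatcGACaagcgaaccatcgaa
Eef2: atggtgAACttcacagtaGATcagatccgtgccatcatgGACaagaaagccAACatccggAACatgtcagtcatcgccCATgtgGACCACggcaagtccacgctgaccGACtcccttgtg

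Eef2, the translocase, had 331, 265 and 282 CPM in the 0Q libraries and 273, 277 and 315 CPM in the 100Q libraries. The 100Q values all lay inside the 0Q range, and the log2 fold change was -0.02 ± 0.13 (SE), with a 95% interval from -0.30 to 0.26.

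The eEF1B complex was next. Eef1b2, the exchange subunit that recharges eEF1A, had 783, 615 and 761 CPM without queuine and 542, 625 and 715 CPM with it. Its log2 fold change was -0.20 ± 0.13 (SE), the lowest of the 5 core factors, and its groups overlapped. Eef1d, a second exchange subunit, was highest in 0Q replicate 1, at 473 CPM, and between 323 and 371 CPM in the other 5 libraries. Eef1g, the structural subunit of the complex, was likewise highest in 0Q replicate 1, at 1132 CPM. It had 846 and 903 CPM in the other 0Q libraries and 849, 873 and 1030 CPM in the 100Q libraries. Its level is uncertain, because the pseudogene Gm4366 and 2 further copies hold 8.75% of their joint counts.

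These 5 core factors, Eef1a1, Eef1b2, Eef1d, Eef1g and Eef2, all had a log2 fold change below 0, with a median of -0.13, and all 5 were highest in 0Q replicate 1. Without 0Q replicate 1 the median was 0.04 and 2 of the 5 lay below 0, so the shared sign rested on that library. Eef1d then stood at 0.04 in place of -0.15, and Eef1g at 0.07 in place of -0.06.

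The remaining elongation genes encode regulators, and none had groups apart. Eef2k, the kinase that halts eEF2, was scarce, with 2.64, 6.63 and 8.89 CPM without queuine and 5.89, 2.53 and 2.91 CPM with it. The groups overlapped widely, and the 95% interval of its log2 fold change ran from -1.99 to 0.63. Eef2kmt, which methylates eEF2, had 15.7, 17.2 and 6.11 CPM against 16.0, 24.9 and 13.9 CPM, so that its log2 fold change was 0.46 ± 0.40 (SE). Its lowest value by far was 0Q replicate 3, without which the log2 fold change was 0.14.

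Among the methyltransferases of eEF1A, the log2 fold change was -0.14 for Eef1akmt1, 0.16 for Eef1akmt2 and 0.09 for Eef1akmt4. Eef1akmt4 overlaps the silent Eef1ece2 in the annotation. Eef1akmt1 and Eef1akmt4 were well expressed, at means of 114 and 91.4 CPM over the 6 libraries, and Eef1akmt2 was at 16.1 CPM. Eef1e1, a component of the aminoacyl-tRNA synthetase complex, had a mean of 163 ± 19.6 CPM in 0Q and 152 ± 8.93 in 100Q (SD, n = 3).

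**Figure D2:**
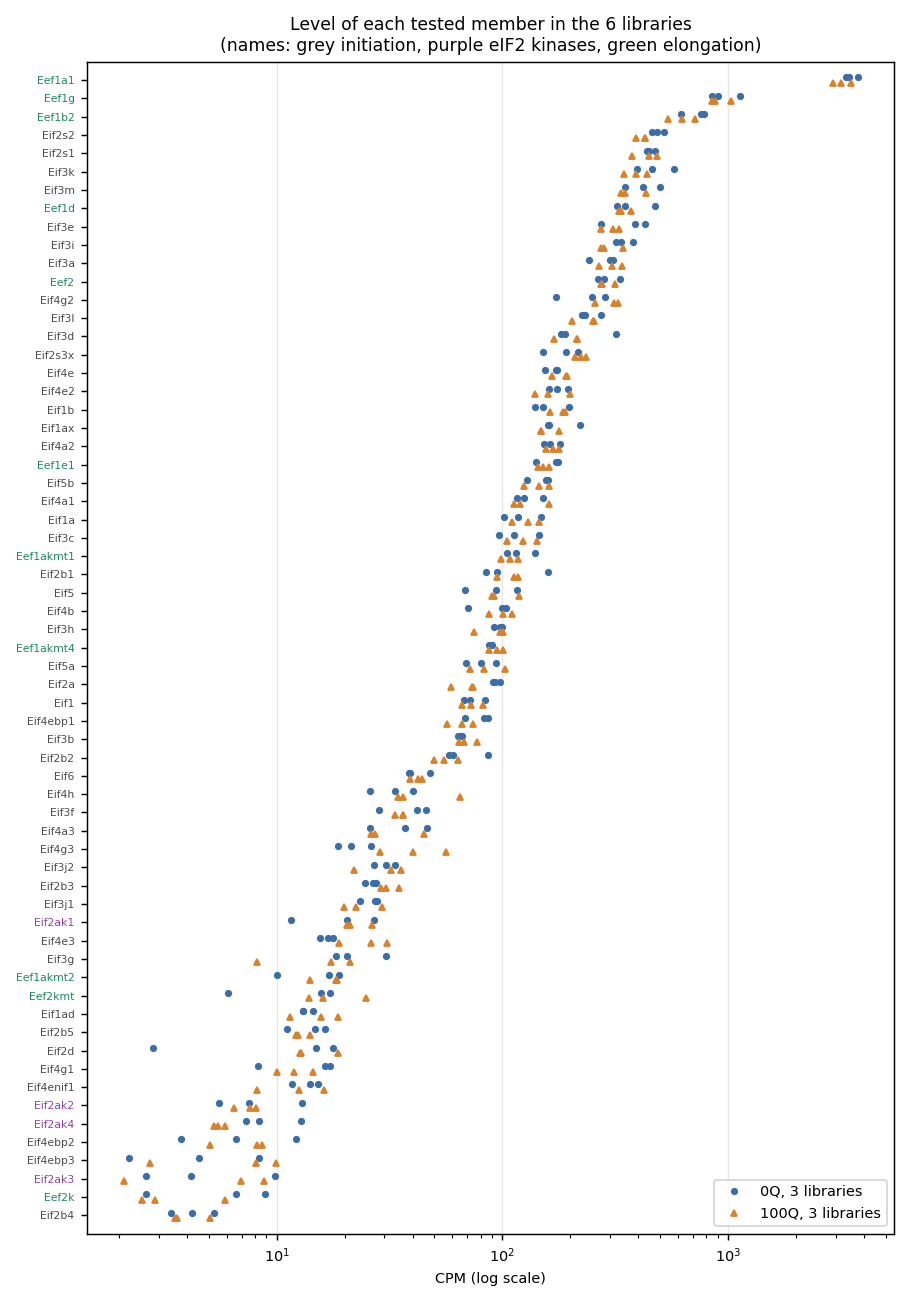
CPM of each tested member in the 3 libraries of 0Q (circles) and the 3 of 100Q (triangles), on a log axis, sorted by mean. Eef1a1 stands alone with a 6-library mean of 3342 CPM. The 6-library means of the eIF2 kinases and Eef2k lie between 4.91 and 21.2 CPM, and in nearly all members the groups intermingle.

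Between genes, levels were compared per kilobase of merged exons. After Eef1a1 came Eef1g at 289, Eef1b2 at 202, Eif3k at 128, Eif1b at 109 and Eef2 at 75.7 CPM per kilobase. Over the 6 libraries the range of Eef1a1, 587 to 754, lay above that of Eef1g, 260 to 348, which lay above that of Eef1b2, 163 to 235. Eef1b2 and Eif3k met at the edges of their ranges, and Eif3k overlapped Eif1b. From Eef2 down, through Eif3i, Eif2s1, Eif2s2 and Eif2s3x, the ranges of neighbours overlapped. The choice of length mattered for Eef2, which ranked 6 per kilobase of exon and 27 per kilobase of coding sequence.

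Of the initiation factors, 20 lay above 0 and 28 below, with a median log2 fold change of -0.04. The test placed 1 gene on each side at an unadjusted p under 0.05 and 0 at an adjusted p under 0.05.

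In 6 members the 3 libraries of one group all lay above the 3 of the other (9.52% of 63), beside 870 of all tested genes (8.24%). They were Eif4g3, Eif4e3 and Eif2b3, with 100Q above, and Eif2a, Eif2s2 and Eif2ak4, with 100Q below. In all tested genes 4.41% had 100Q above and 3.84% had 100Q below, so the members' share was near the background. For 1 gene taken alone, 3 libraries against 3 cannot give an exact two-sided permutation p below 0.1.

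Eif4g3 had the largest estimated difference in the class. It encodes a second scaffold protein of eIF4F, related to eIF4G1, and lies at chr4:137720333-137935819 on the plus strand (GRCm39). Its level was 26.3, 21.3 and 18.6 CPM in the 0Q libraries and 40.3, 56.2 and 28.6 CPM in the 100Q libraries. Every 100Q library was above every 0Q library, and 100Q replicate 2 was the highest. The log2 fold change was 0.91 ± 0.29 (SE), with an edgeR p of 0.0058 before adjustment and 0.999 after it. Without 100Q replicate 2 it was 0.63, and without 100Q replicate 3 it was 1.12.

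Eif2a had the smallest p among members with a lower mean in 100Q. It encodes eIF2A, a single protein that can bring initiator tRNA to the ribosome and is distinct from the eIF2 complex, and lies at chr3:58432735-58465412 on the plus strand (GRCm39). Its level was 97.1, 90.7 and 92.5 CPM in 0Q, a narrow range, and 74.3, 59.0 and 73.1 CPM in 100Q. All 100Q libraries were below all 0Q libraries, and the log2 fold change was -0.44 ± 0.18 (SE), with an edgeR p of 0.024 before adjustment and 0.999 after it. It stayed between -0.50 and -0.35 when any library was left out.

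Their first 120 coding bases differ in how many queuosine codons they hold, in capitals below. Eif2a has 4 of them, 2 ending in U, and 65.3% of the queuosine codons in its whole coding sequence end in U. Eif4g3 has 2, both ending in C, and 42.5% in its whole coding sequence end in U.
Eif2a: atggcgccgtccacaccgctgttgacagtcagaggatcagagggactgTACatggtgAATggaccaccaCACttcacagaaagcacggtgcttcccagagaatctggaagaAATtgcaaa
Eif4g3: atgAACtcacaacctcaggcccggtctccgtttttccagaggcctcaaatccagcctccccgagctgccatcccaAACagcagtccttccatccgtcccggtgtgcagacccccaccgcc

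**Figure D3:**
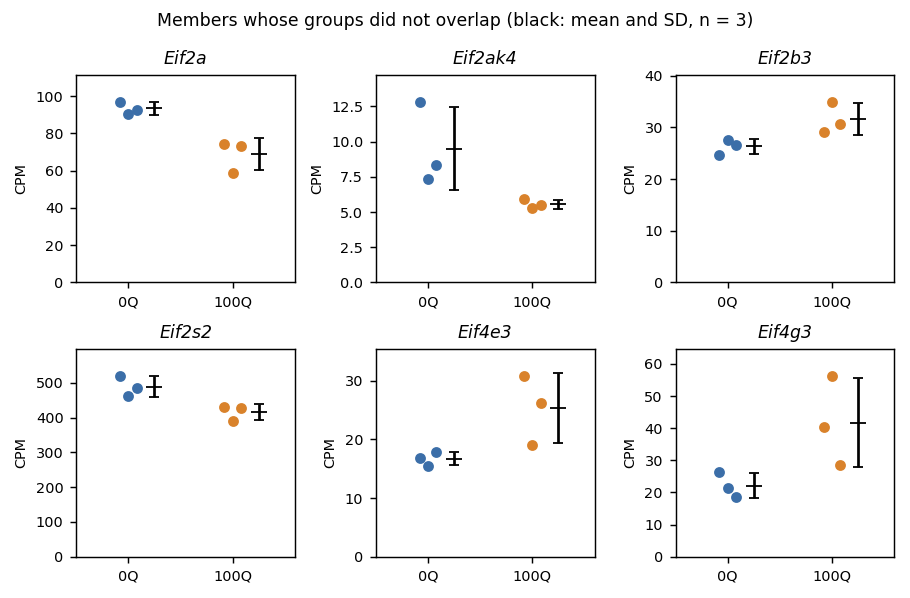
CPM by library (points) with mean and SD (black, n = 3) for the 6 members whose groups did not overlap, each axis starting at 0. The gap between groups is wide in Eif2a and narrow in Eif4e3 and Eif2b3, and the spread in 100Q relative to the mean is widest for Eif4g3.

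The eIF2 complex was abundant, with a summed level of 1128 ± 52.4 CPM in 0Q and 1073 ± 68.7 in 100Q (SD, n = 3). Eif2s1, the alpha subunit that the stress kinases phosphorylate, had 474, 438 and 446 CPM without queuine and 447, 375 and 484 CPM with it. The 100Q values spanned the 0Q range, and the log2 fold change was -0.06 ± 0.12 (SE). Eif2s2, the beta subunit, had 519.5, 462 and 486 CPM without queuine and 429.6, 391 and 428 CPM with it. All 100Q libraries were below all 0Q libraries, with a log2 fold change of -0.23 ± 0.12 (SE) and an edgeR p of 0.059 before adjustment and 0.999 after it. That value is uncertain, because the transcribed pseudogene Gm9892 holds 11.4% of their joint counts.

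Eif2s3x, the X-linked gamma subunit, had 191, 217 and 151 CPM without queuine and 209, 234 and 223 CPM with it, with 0Q replicate 2 inside the 100Q range. As shares of the level per coding length over the 3 subunits, Eif2s2 took 45.4% ± 1.63 in 0Q and 41.0% ± 1.07 in 100Q, and Eif2s3x took 13.6% ± 2.37 and 17.3% ± 2.00 (SD, n = 3). The Eif2s2 shares did not overlap between groups, whereas those of Eif2s3x and Eif2s1 did.

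Of the 5 eIF2B subunits, the exchange factor of eIF2, 4 lay below 0, with a median of -0.08. The exception was Eif2b3, the gamma subunit, with 24.7, 27.5 and 26.7 CPM without queuine and 29.1, 35.0 and 30.7 CPM with it. Its groups did not overlap, though by a small margin, and its log2 fold change was 0.26 ± 0.26 (SE). Eif2b5, the catalytic subunit, had 14.7, 16.4 and 11.1 CPM against 12.2, 14.1 and 12.4 CPM, with the 100Q values inside the 0Q range.

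For eIF1 and eIF1A, which keep the scanning ribosome open until a start codon is found, the groups overlapped in all 4 genes. Eif1 was at 74.3 ± 8.42 CPM in 0Q and 73.7 ± 8.20 in 100Q (SD, n = 3). This level is uncertain, because 13 other genes have a transcript with a near-identical stretch. They hold 47.7% of the joint counts, but 2844 of their 2912 counts lie on Emd. Emd is a protein-coding gene of its own that matches Eif1 over 313 bases only. How many of its counts came from that stretch was not measured, so 47.7% is not the share of doubtful reads. Eif1ax was at 179 ± 34.9 and 158 ± 17.4 CPM, and Eif1a at 122 ± 23.8 and 129 ± 17.2 CPM. The share of Eif1a in the sum of both, per coding length, was 27.7%, 29.4% and 26.6% in 0Q and 31.6%, 29.8% and 33.3% in 100Q. The shares thus did not overlap although the levels of each gene did. Coding length was 762 bases for Eif1a and 432 for Eif1ax, from the longest annotated coding sequence, so the size of the share depends on that choice.

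All 14 eIF3 subunit genes were tested, and 11 lay below 0, with a median of -0.13 and a range from -0.57 to 0.10. None passed the test and in none were the groups apart. Eif3k, the most abundant, had 573, 396 and 459 CPM without queuine and 392.4, 346 and 438 CPM with it, giving a log2 fold change of -0.28 ± 0.14 (SE), with an edgeR p of 0.066 before adjustment and 0.999 after it. Without 0Q replicate 1 it was -0.12. Eif3e had 429, 273 and 387 CPM against 308, 272 and 329 CPM. Its log2 fold change was -0.26, and -0.12 without 0Q replicate 1 and -0.44 without 0Q replicate 2. In both genes 0Q replicate 1 was the highest and 0Q replicate 2 lay among the 100Q libraries.

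Eif3m had 422 ± 73.3 and 372 ± 51.5 CPM, and Eif3h had 96.3 ± 4.07 and 90.9 ± 13.9 CPM (SD, n = 3 each). Eif3a, the core scaffold of the complex, went the other way, with 284 ± 36.2 and 304 ± 35.2 CPM. Each difference was smaller than the larger SD of its pair. Eif3j1 and Eif3j2 are near-identical, so the division of counts between them, 1086 and 1365, is uncertain.

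One library stood apart from the rest for these genes. The library 0Q replicate 1 was the highest library for 24 of the 63 members (38.1%), beside 20.9% of all tested genes. At 100 CPM or more it was highest for 18 of 28 members (64.3%) and for 45.3% of all genes. Per library, the median deviation of the eIF3 genes from their own 6-library mean, in log2(CPM + 1), was 0.16 in 0Q replicate 1 and -0.06 and 0.04 in 0Q replicates 2 and 3. In 100Q replicates 1, 2 and 3 it was -0.11, -0.18 and 0.05. Without 0Q replicate 1, 9 of 14 eIF3 genes lay below 0, with a median of -0.08. The granulocyte marker sum was also highest in 0Q replicate 1, at 16858 CPM, and its part in this was not tested.

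**Figure D4:**
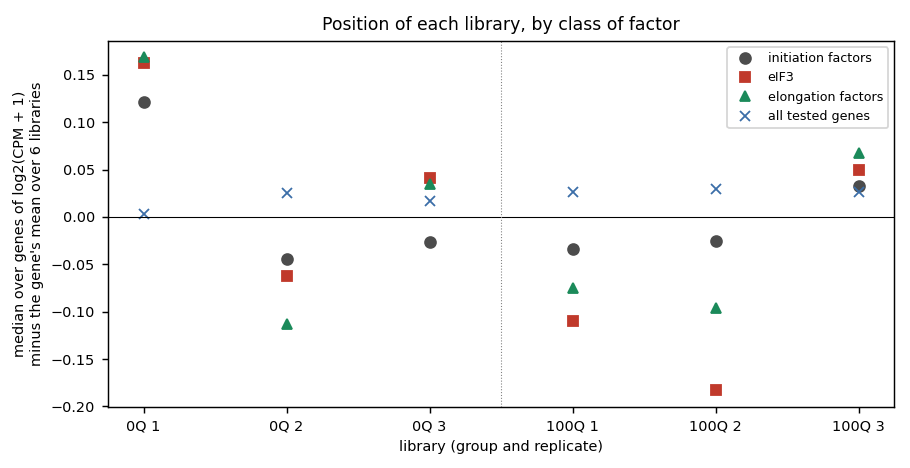
Median deviation of each class from its genes' 6-library mean, in log2(CPM + 1), by library. 0Q replicate 1 is highest for initiation factors (0.12), eIF3 (0.16) and elongation factors (0.17), while the median over all tested genes stays between 0.0035 and 0.030.

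The group of eIF4F and its helpers, formed by symbol, differed in sign from eIF3. Of its 11 tested genes 7 lay above 0, with a median of 0.13. Its summed level was 1022, 1114 and 1129 CPM without queuine and 1200.2, 1230.3 and 1176 CPM with it. All 100Q sums lay above all 0Q sums, and 0Q replicate 1 was the lowest. A large part of this came from 1 gene. The mean sum was 1088 CPM in 0Q and 1202 in 100Q, of which Eif4g2 alone gave 235 and 298. The sums thus show no shift of the whole group. The other class and complex sums that were taken overlapped between groups. No gene of the group passed the test, and the difference between it and eIF3 was not tested.

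Among the scaffolds, Eif4g2, which encodes a relative of eIF4G without the cap-binding part, dominated. It had 173, 283 and 248 CPM without queuine and 312, 326 and 256 CPM with it, overlapping through 0Q replicate 2. Its log2 fold change was 0.34 ± 0.16 (SE), with an edgeR p of 0.052 before adjustment and 0.999 after it. It was 0.16 without 0Q replicate 1 and 0.50 without 0Q replicate 2. Eif4g1, the main scaffold of eIF4F, was scarce, with 8.31, 16.4 and 17.2 CPM against 10.1, 14.5 and 12.0 CPM, and its groups overlapped. As shares of the level per coding length over the 3 genes, Eif4g2 held 88.9% to 93.0% in every library. Eif4g1 held 3.04% ± 0.592 in 0Q and 2.12% ± 0.394 in 100Q (SD, n = 3), and these shares did not overlap. The shares of Eif4g3 did overlap, unlike its levels. Of 24 such shares in 8 sets of related genes, 5 did not overlap between groups. They came from 4 sets, since the shares of Eif1a and Eif1ax mirror each other, and no share was tested. Levels did not overlap in 8.24% of all tested genes. The matching rate for shares within other gene families was not measured, so the count of 5 shows no shift in composition.

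Of the cap-binding proteins, Eif4e had 168 ± 11.1 CPM in 0Q and 184 ± 15.2 in 100Q (SD, n = 3). Eif4e2 was at a similar level, with 177 ± 17.7 and 166 ± 29.7 CPM, and its groups overlapped. Per coding length it held 37.3% to 46.5% of the eIF4E family, and Eif4e held 49.0% to 55.2%. Eif4e3, a divergent relative, had 16.8, 15.5 and 17.8 CPM without queuine and 30.8, 19.0 and 26.3 CPM with it. All 100Q libraries were above all 0Q libraries, with 100Q replicate 2 just above them, and the log2 fold change was 0.61 ± 0.31 (SE), with an edgeR p of 0.063 before adjustment and 0.999 after it. Its share of the eIF4E family per coding length was 4.76% ± 0.336 and 6.87% ± 1.17, without overlap.

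The helicases of eIF4F unwind the leader of the mRNA. Eif4a1 had 131 ± 17.9 CPM in 0Q and 131 ± 25.7 in 100Q, and Eif4a2 had 165 ± 13.6 and 167 ± 10.5 (SD, n = 3 each). Per coding length, Eif4a2 held 45.7% to 55.0% of the sum over Eif4a1, Eif4a2 and Eif4a3. Its share exceeded that of Eif4a1 in all libraries but 100Q replicate 2, and Eif4a3 held 6.94% to 12.1%. The log2 fold change was -0.0011 for Eif4a1 and 0.02 for Eif4a2.

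The 4E-binding proteins hold eIF4E back until mTOR phosphorylates them. Eif4ebp1 was the main one, with 79.0 ± 9.68 CPM in 0Q and 65.6 ± 8.48 in 100Q (SD, n = 3), and the groups overlapped. It held 73.9% to 88.9% of the family per coding length. Eif4ebp2 was at 7.54 ± 4.30 and 7.29 ± 1.94 CPM. Eif4ebp3 was at 5.03 ± 3.08 and 6.90 ± 3.72 CPM, and 16.9% of its joint counts with a near-identical copy lay on the copy.

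The late-acting factors had estimates close to 0. Eif5, which makes eIF2 hydrolyse its GTP at the start codon, had an estimated log2 fold change of 0.11 ± 0.20 (SE). Eif5b, which joins the ribosomal subunits, had -0.04 ± 0.15, and Eif6, which keeps the large subunit apart, had 0.0037 ± 0.22. Eif5a, the hypusine-carrying factor that helps stalled ribosomes onward, had 94.1, 80.1 and 68.9 CPM without queuine and 103, 83.0 and 72.1 CPM with it. Its groups overlapped almost completely.

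The eIF2 kinases were the least abundant class, with a summed level of 43.4 ± 8.22 CPM in 0Q and 41.5 ± 5.45 in 100Q (SD, n = 3). None passed the test, and 2 lay above 0 and 2 below. Eif2ak1, which responds to lack of haem, was the most abundant, with 11.5, 20.6 and 26.9 CPM against 20.5, 21.1 and 26.4 CPM. Eif2ak2, the kinase that double-stranded RNA activates, had 7.55, 13.0 and 5.56 CPM against 6.46, 7.58 and 8.14 CPM. In both the 100Q values lay inside the 0Q range.

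Eif2ak3, the kinase of the endoplasmic reticulum, had 2.64, 9.87 and 4.17 CPM against 8.75, 2.11 and 6.92 CPM, with no order between the groups. Eif2ak4, which senses uncharged tRNA, was the 1 kinase without overlap, with 12.8, 7.33 and 8.33 CPM without queuine and 5.89, 5.27 and 5.50 CPM with it. The 100Q libraries lay close together and below the lowest 0Q library, and 0Q replicate 1 was the highest. Its log2 fold change was -0.77 ± 0.46 (SE), with an edgeR p of 0.11 before adjustment and 0.999 after it, and -0.49 without 0Q replicate 1. Low counts limit this class: no kinase had its whole 95% interval within a 1.5-fold change.

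Annotated transcript starts were read for the 49 tested members with a RefSeq promoter. A C followed by at least 4 C or T, on the gene's strand and starting within 3 bases of the annotated start, was found in 9 of them (18.4%). It was found in 11.5% of all 32851 promoters and in 15.1% of the tested genes with one. The 9 were Eif1ad, Eif2ak4, Eif2b5, Eif2s3x, Eif3b, Eif3f, Eif3l, Eif4g1 and Eef1a1. Besides Eef1a1 above, the longest tracts were those of Eif3f, at chr7:108533617-108533646 (plus strand, GRCm39), and Eif2s3x, at chrX:93256233-93256262 (minus strand). Eif3k, at chr7:28681289-28681318 (minus strand), is shown for a tract 13 bases downstream of its annotated start, and Eif4g3, at chr4:137720761-137720790 (plus strand), for having none in the window.
Eif3f: gctCTCTCTCTTTCTCggcaagatggcttc
Eif2s3x: ttttCCTTTTCTCTCCgagcaagatggctg
Eif3k: gcgctggtgctgaaagcgCCTTTCCCTTTg
Eif4g3: gcggccgtcctgccggactgctggaggcgg

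The 9 members with a tract had a median log2 fold change of -0.13, with 6 below 0, and the 40 without had -0.04. Without 0Q replicate 2 the median of the 9 was -0.018. Over all 1185 tested genes with such a start the median was -0.01. A tract anywhere in the first 50 bases was found in 69.4% of members and 51.3% of all promoters. A match describes these letters only, since annotated starts can lie away from those used in the cells. That distance was not measured for any member, Eef1a1 included.

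Queuosine tRNAs read codons ending in C or U, and the share ending in U differed widely among members. Over the 60 members with at least 20 Asn, Asp, His and Tyr codons the median share was 43.9%, beside 44.0% over 8783 tested genes. It was 45.6% in the initiation factors (n = 45) and 36.8% in the elongation factors (n = 11). The extremes were Eif3k, with 21.1% of 38 such codons, and Eif2s1, with 73.7% of 57. Their first 120 coding bases are shown with these codons in capitals: in this stretch 6 of 7 end in U in Eif2s1, and 3 of 7 in Eif3k.
Eif2s1: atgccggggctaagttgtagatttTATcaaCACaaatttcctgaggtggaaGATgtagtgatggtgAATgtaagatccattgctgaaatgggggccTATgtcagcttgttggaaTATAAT
Eif3k: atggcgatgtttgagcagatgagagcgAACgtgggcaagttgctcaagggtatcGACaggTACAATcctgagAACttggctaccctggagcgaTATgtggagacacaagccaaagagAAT

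Across these members, which share the same 6 libraries, Spearman's rho between the share ending in U and the log2 fold change was 0.17, and across all such genes it was -0.04. Both describe genes within 1 comparison and carry no test. The log2 fold change was -0.06 for Eif2s1 and -0.28 for Eif3k, and neither gene's groups were apart.

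**Figure D5:**
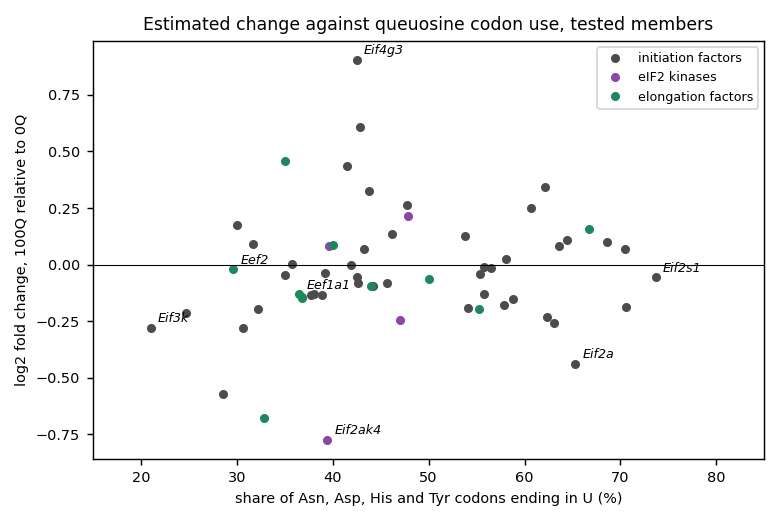
Log2 fold change of 100Q relative to 0Q against the percentage of Asn, Asp, His and Tyr codons that end in U, for the 60 tested members with at least 20 such codons, coloured by class. Elongation factors sit mostly left of 50%, and the points form no band (Spearman's rho 0.17).

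No gene of the lists that act on these factors passed the test either. Of 56 such genes outside the rule, covering termination, poly(A) binding, helicases, mTOR signalling, the integrated stress response and factor modification, 50 were tested. Of these 50, 3 had an unadjusted p under 0.05, beside 2.93% of all tested genes. The log2 fold change lay above 0 for 34 and below for 16, with a median of 0.13. Over all tested genes, 5277 lay on each side. Groups did not overlap in 7 of the 50, beside 8.24% of all tested genes. These differences from all tested genes were not tested. Among the 11 genes of the mTOR and related kinase pathways above initiation, 10 lay above 0, with a median of 0.29. Of these 11, 0 had an unadjusted p under 0.05 and 1 had groups that did not overlap. Some were scarce, such as Rptor, at means of 1.63 CPM in 0Q and 4.15 in 100Q. The list was not sorted by direction of action, so the shared sign gives no direction for the pathway.

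The smallest p was that of Dnajc3, whose protein restrains Eif2ak2 and Eif2ak3. It had 15.3, 36.1 and 19.2 CPM without queuine and 50.6, 59.4 and 32.3 CPM with it, overlapping through 0Q replicate 2, and its log2 fold change was 0.99 ± 0.32 (SE), with an edgeR p of 0.0066 before adjustment and 0.999 after it. Ppp1r15a, which directs a phosphatase to eIF2 alpha, had 6.42, 10.9 and 6.67 CPM against 21.3, 13.5 and 13.7 CPM. All its 100Q libraries were above all 0Q libraries, with a log2 fold change of 1.00 ± 0.39 (SE) and an edgeR p of 0.021 before adjustment and 0.999 after it.

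Paip2, a repressor of the poly(A)-binding protein, had 122, 69.7 and 72.5 CPM without queuine and 65.2, 59.2 and 58.2 CPM with it. The groups did not overlap, and 0Q replicate 1 stood far above the rest. The log2 fold change was -0.53 ± 0.22 (SE), and -0.22 without that library. The log2 fold change of Gspt1, a release factor, was 0.45 ± 0.21 (SE), and that of Dph3, needed for the diphthamide on eEF2, was -0.36 ± 0.19 (SE).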

How the data were processed

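Per the labels, mRNA was sequenced from 6 cultures. The deposited table holds the authors' expected counts for each gene and library. Per the submitters' processing notes, FastQC, STAR and RSEM were used with mm39 (GRCm39). The sources used here do not give versions, annotation release or strandedness, so overlapping and antisense genes may share reads. Because RSEM divides ambiguous reads, genes with near-identical copies are uncertain. Copies were searched with blastn 2.17.0 over GENCODE release 39 transcripts, at 95% identity or more over at least 50% of the coding sequence. Symbols came from the same release, and 502 identifiers had no match. No column was left unused.

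Expected counts were rounded. edgeR 4.0.16 in R 4.3.3 (filterByExpr, TMM, robust quasi-likelihood fit, Benjamini-Hochberg over all tested genes, threshold 0.05) compared 3 libraries per group, without other terms. CPM values are scaled by TMM. Coding length is that of the longest annotated coding sequence of a gene, with those opening with ATG taken first. The fit was tested on simulated data. Alternatives were DESeq2 1.42.0, limma-voom (limma 3.58.1), other scalings and filters, a replicate block and each library left out. Without molecular identifiers, counting error is all that depth describes; 3 counts corresponded to 0.159 to 0.833 CPM. No libraries were duplicates.

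Members and gene lists were chosen with earlier results of these data known. Text names kinases, tested elongation genes, the 5 most abundant and 5 lowest-p initiation factors, members without overlap, a fixed set of well-known factors, and the 5 lowest-p related genes. Others are named for level per length, near-identical copies, family shares or pyrimidine starts, chosen after their values were seen. Protein sequences were not used here.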

Additional observations from a re-analysis of the deposited data

How the results depend on the processing

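No member passed the adjusted threshold under any of the 13 alternatives run. Over all genes the count was 0, and it ranged from 0 to 2 when 1 library was left out (2 genes when 0Q replicate 1 was omitted and 1 when 0Q replicate 2 was, none a member). Members without overlap numbered 6, or 7 with library totals alone, and 8 to 13 with a library left out, where 14.7% to 24.4% of all tested genes had groups apart in place of 8.24%. Members with an unadjusted p under 0.05 numbered 2, or 4 with library totals alone, and 1 to 8 with a library left out, where 1.74% to 6.03% of all tested genes were. The median of the members with a pyrimidine start, -0.13, ranged from -0.11 to -0.018 with a library left out, and was -0.08 with a tract anywhere in the first 50 bases, a window chosen after seeing the data. The medians of the classes ranged, with a library left out, from -0.07 to -0.0029 for initiation factors, from -0.30 to 0.21 for kinases and from -0.17 to -0.03 for elongation factors. With library totals alone the initiation median was 0.00015, and the median of all genes was 0.04. Without 0Q replicate 1, Eef1d turned to 0.038 (range over libraries left out -0.26 to 0.038) and Eef1g to 0.072 (range -0.16 to 0.072). The cause was not tested. Without 0Q replicate 1 the median was 0.03 for members at 100 CPM or more, and without 0Q replicate 2 it was -0.15. Among 48 named genes, the sign differed from the main estimate in 9 of 288 values under other settings and in 37 of 288 with a library left out, and none of those values passed the threshold.

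The labels do not say whether replicate numbers pair the cultures, and the data gave no clear sign of it. Deviations from the group means correlated at 0.03, 0.13 and -0.04 between same-numbered libraries and from -0.16 to 0.17 between the others. With 3 libraries per group, such correlations cannot exclude pairing. With the replicate block, 0 members and 0 genes passed, 5 members had an unadjusted p under 0.05 in place of 2, as 3.99% of all tested genes did in place of 2.93%, and the medians were -0.02 for initiation factors, -0.00082 for kinases and -0.09 for elongation factors. Depth limits the kinases, Eef2k and other members below 100 CPM, for which intervals were wide.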
